A study of Homo sapiens with 6 samples.

Results

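The urea cycle and glutamine enzymes described here are 9 genes, CPS1, OTC, ASS1, ASL, ARG1, ARG2, NAGS, GLUL and GLUD1, found by symbol among the 58735 genes of the deposited expression table. All 9 were in the table. They were selected on their FPKM values in these same libraries, OE1 to OE3 against CT1 to CT3, with the result known. Their differences between those groups are therefore given as descriptions, with no test. The study sequenced RNA in 2 groups of 3 libraries, all labelled as SW480, a human line derived from a colorectal adenocarcinoma. Libraries with the genotype DDX39B overexpression are called OE-labelled, and those with the genotype WT and "Con" in their titles CT-labelled. Both groups were grown in Leibovitz's L-15 medium with 10% FBS, without CO2 at 37 °C. How DDX39B was overexpressed, for how long, whether a clone or a pool was used, and whether the 3 libraries of a group came from separate cultures is not stated in the labels. P-values therefore measure only the spread between these libraries.

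The urea cycle turns ammonia into urea, mainly in liver. In the mitochondrion CPS1 joins ammonia and bicarbonate to carbamoyl phosphate, but only with its activator N-acetylglutamate, which NAGS makes, and OTC passes the carbamoyl group to ornithine to give citrulline. In the cytosol ASS1 joins citrulline to aspartate, ASL splits the product into arginine and fumarate, and arginase (ARG1 in liver cytosol, ARG2 in mitochondria of many other tissues) releases urea and ornithine. GLUL, glutamine synthetase, binds ammonia to glutamate, and GLUD1, glutamate dehydrogenase, exchanges ammonia between glutamate and 2-oxoglutarate. In liver CPS1 marks the periportal zone and GLUL the pericentral zone, and outside liver CPS1 and OTC are known from the small intestine, while ASS1 and ASL are found in many tissues as the route from citrulline to arginine.

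The labels and the data disagree on DDX39B, an RNA helicase that couples splicing to mRNA export. DDX39B measured 15.0, 13.9 and 14.0 FPKM in the OE-labelled libraries, against 39.3, 34.6 and 41.9 FPKM in the CT-labelled libraries. FPKM is a read count scaled by gene length and library size. The log2 difference was -1.37 (SE 0.079, limma adjusted p = 6.93e-06), so the gene was lower under the overexpression label, and every direction below follows the labels as given. Reads worked out from the FPKM values summed to 16963075 to 17463697 per library. With a minimum mean of 1 FPKM, 13972 genes were tested by limma. An adjusted p under 0.05 was reached by 76.8% of them, with 37.5% higher and 39.3% lower in the OE-labelled libraries.

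Markers of the labelled cell type differed widely between the groups. Of 9 markers of colorectal epithelium, 5 were tested and all 5 were higher under the overexpression label, the 9 summing to 194 to 202 FPKM in the OE-labelled libraries and 3.82 to 5.83 FPKM in the CT-labelled libraries. CDX2, the intestinal homeobox factor, had 1059 reads in the OE-labelled libraries and 0 in the CT-labelled libraries. EPCAM, an epithelial adhesion molecule, averaged 171 ± 3.6 FPKM in the OE-labelled and 2.72 ± 0.67 FPKM in the CT-labelled libraries (SD, n = 3 each; limma adjusted p = 1.01e-07). Among those under the filter, KRT20 went the other way, with 6 reads in the OE-labelled and 80 in the CT-labelled libraries, CEACAM5 had 1 read in the OE-labelled and 5 in the CT-labelled libraries, and CDX1 had 0 in all 6. Of 7 hepatocyte markers only SERPINA1 was tested and higher (13834 reads against 16), while ALB had 2 reads in the OE-labelled and 1 in the CT-labelled libraries and TTR had 0 in all 6. The 7 summed to 52.1 to 53.9 FPKM in the OE-labelled and 0.153 to 0.275 FPKM in the CT-labelled libraries. SERPINA1 alone made up nearly all of the OE-labelled sum, at 52.7 ± 0.94 FPKM. Of 6 markers of small intestinal enterocytes, ALPI and ANPEP were tested and lower, and APOA4, FABP2 and SI had 0 reads in all 6 libraries. The 6 summed to 0.213 to 0.305 FPKM in the OE-labelled and 84.9 to 142 FPKM in the CT-labelled libraries. ALPI, at 93.1 ± 27 FPKM, and ANPEP, at 26.7 ± 4.1 FPKM, made up nearly all of the CT-labelled sum. Leukocyte markers summed to at most 1.19 and 0.625 FPKM in OE-labelled and CT-labelled libraries, with 0 of 8 tested and 0 reads of CD3D and MS4A1. Fibroblast markers (1 of 7 tested, COL1A1, lower) summed to at most 1.67 FPKM in the OE-labelled and 8.20 FPKM in the CT-labelled libraries, with 0 reads of PDGFRA. Endothelial markers (1 of 6 tested, ESAM, lower) summed to at most 1.43 FPKM in the OE-labelled and 50.6 FPKM in the CT-labelled libraries, with 0 reads of KDR. Most of the CT-labelled sum was ESAM, at 43.5 ± 7.4 FPKM, and VWF of the same list had 326 reads in the OE-labelled and 24 in the CT-labelled libraries. With DDX39B against its label and these markers far apart, the values do not settle whether both groups are the labelled line or carry the right labels, and each fold below is between libraries as labelled. The part of these markers in the differences below was not tested, and fewer cells of a type and less RNA per cell cannot be told apart in bulk samples.

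The promoters of the 9 genes differed in CpG content, a feature the choice of genes did not use. The RefSeq promoter table (GRCh38.p14) held all 9. In the 250 bases before the RefSeq start, CPS1 had 3 CpG dinucleotides, OTC 2 and ARG1 1. The other members had 13 (NAGS), 21 (ASS1), 22 (ASL), 25 (GLUL), 27 (ARG2) and 41 (GLUD1). The median over 35116 windows of the same length was 11, which is close to the NAGS count. The windows of CPS1, OTC and ARG1 are shown as those with the fewest CpG, and those of ASS1 and NAGS because these genes differ most between the groups besides CPS1. Each is written 5′ to 3′ on the strand of its gene, with CpG dinucleotides in capitals. The stretches of OTC, ARG1 and NAGS stop where the gene model of the deposited table starts, which leaves 0 CpG in the ARG1 stretch and 7 in that of NAGS.
CPS1, chr2:210593105-210593354, plus strand: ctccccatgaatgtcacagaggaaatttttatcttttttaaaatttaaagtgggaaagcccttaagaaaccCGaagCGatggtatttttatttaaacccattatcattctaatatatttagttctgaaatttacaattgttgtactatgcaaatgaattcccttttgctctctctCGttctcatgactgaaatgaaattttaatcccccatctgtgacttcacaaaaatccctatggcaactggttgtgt
OTC, chrX:38352354-38352544, plus strand: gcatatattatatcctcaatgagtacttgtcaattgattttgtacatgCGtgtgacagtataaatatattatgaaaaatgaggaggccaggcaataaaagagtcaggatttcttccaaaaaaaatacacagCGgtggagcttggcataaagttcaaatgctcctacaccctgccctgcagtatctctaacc
ARG1, chr6:131572976-131573143, plus strand: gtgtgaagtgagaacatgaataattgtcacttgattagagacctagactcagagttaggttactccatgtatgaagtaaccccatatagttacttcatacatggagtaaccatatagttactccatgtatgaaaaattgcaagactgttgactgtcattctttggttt
ASS1, chr9:130444457-130444706, plus strand: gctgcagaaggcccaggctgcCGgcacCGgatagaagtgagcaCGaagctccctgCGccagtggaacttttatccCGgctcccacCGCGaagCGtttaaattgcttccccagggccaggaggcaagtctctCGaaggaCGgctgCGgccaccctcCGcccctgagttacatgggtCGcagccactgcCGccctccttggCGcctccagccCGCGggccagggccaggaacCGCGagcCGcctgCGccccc
NAGS, chr17:44004372-44004545, plus strand: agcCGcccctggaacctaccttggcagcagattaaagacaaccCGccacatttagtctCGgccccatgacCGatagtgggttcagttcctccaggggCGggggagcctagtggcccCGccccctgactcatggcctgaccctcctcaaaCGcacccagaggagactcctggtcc

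**Figure D1:**
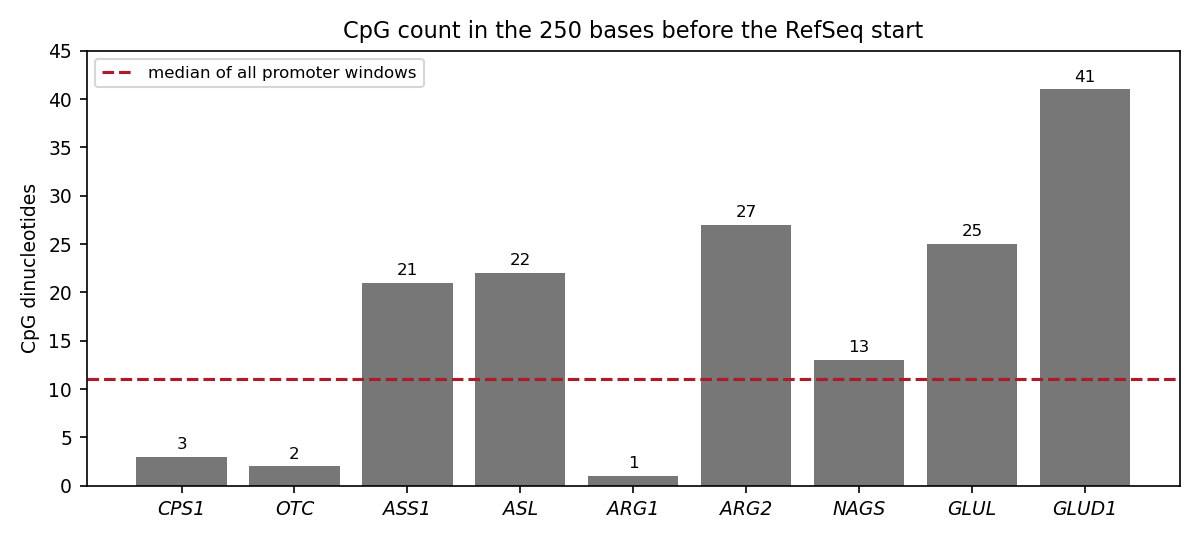
Number of CpG dinucleotides (y axis) in the 250 bases before the RefSeq start of each of the 9 genes (x axis), with the median of all 35116 windows, 11, as a dashed line. CPS1, OTC and ARG1 stand at 1 to 3 and the other 6 genes at 13 to 41.

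Simple promoter motifs were searched on both strands of the same 250 bases. The GC box GGGCGG stood in 6 of the 9 windows (2 copies each in ASS1, GLUL and GLUD1, 4 in ASL, and 5 each in ARG2 and NAGS), and 42.6% of all windows hold it. None of CPS1, OTC and ARG1 had it. The TATA box TATAAA stood in OTC, from position -192 to -187, and in ARG1, from -29 to -24, counted from the base before the start as -1, and 10.7% of all windows hold it. CCAAT stood in ASL, ARG2 and GLUL (32.0% of all windows), and TGACG, the core of the cAMP response element, in ASL at 1 place and in ARG2 at 5 places, of which 2 pairs overlap on opposite strands (21.2% of all windows). The E-box CACGTG was in 0 of the 9 windows (6.34% of all). The TATA box of ARG1, and the GC boxes of NAGS that begin at -64 and -43, lie past the end of the stretches printed above, inside the gene models. A match is a description of the letters, not a site in use.

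The enzymes of the cycle's mitochondrial entry stood at opposite ends. CPS1 (ENSG00000021826, chromosome 2, 210477682 to 210679107, plus strand, GRCh38) measured 0.153, 0.108 and 0.114 FPKM in the OE-labelled libraries, against 178, 173 and 144 FPKM in the CT-labelled libraries. The 3 OE-labelled libraries are near the bottom of the scale and the 3 CT-labelled ones high, with no overlap, and the means differed 1321-fold. These values rest on 29, 21 and 22 reads against 31324, 31424 and 25993 reads. CPS1 stood at rank 13482 by mean FPKM among protein-coding genes in the OE-labelled group and at rank 162 in the CT-labelled group. Its log2 difference was -7.20 on the log2(FPKM + 1) scale and -9.52 with a pseudocount of 0.1, since the larger pseudocount shrinks differences of genes near 0.

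NAGS, which makes the activator that CPS1 needs, went the other way. NAGS (ENSG00000161653, chromosome 17, 44004546 to 44009063, plus strand) measured 6.37, 5.34 and 5.65 FPKM in the OE-labelled libraries, against 0.283, 0.273 and 0.254 FPKM in the CT-labelled libraries. All 3 OE-labelled values exceed all 3 CT-labelled ones, and the means differed 21.4-fold. The CT-labelled values rest on 13, 13 and 12 reads, against 317, 272 and 285 reads. The CPS1 level was thus 0.0202 to 0.0240 of the NAGS level in the OE-labelled libraries and 567 to 633 times the NAGS level in the CT-labelled libraries.

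OTC, the next enzyme, was not seen in either group. OTC (ENSG00000036473, chromosome X, 38352545 to 38421450, plus strand) had 0 reads in all 6 libraries. A count of 0 allows up to 3 reads per group, or a mean of 0.0324 FPKM in the OE-labelled and 0.0348 FPKM in the CT-labelled libraries, for counting error only. At this depth OTC mRNA was not detectable in the CT-labelled libraries, in which CPS1 was abundant.

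ASS1 was the most abundant of the 9 mRNAs in the CT-labelled libraries. ASS1 (ENSG00000130707, chromosome 9, 130444929 to 130501274, plus strand) measured 33.3, 31.0 and 31.6 FPKM in the OE-labelled libraries, against 992, 945 and 959 FPKM in the CT-labelled libraries. The groups lie far apart and each is tight, with a coefficient of variation of 3.67% in the OE-labelled and 2.49% in the CT-labelled group, where the median over all tested genes was 5.18% and 11.8%. ASS1 averaged 32.0 ± 1.2 FPKM in the OE-labelled and 965 ± 24 FPKM in the CT-labelled libraries (SD, n = 3 each), which is 30.2-fold lower. ASS1 ranked 1212 in the OE-labelled and 23 in the CT-labelled group among protein-coding genes. Unlike CPS1 it was still well expressed in the lower group. Its log2 difference was -4.87 on the log2(FPKM + 1) scale.

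ASL, which acts directly after ASS1, differed little and in the other direction. ASL (ENSG00000126522, chromosome 7, 66075798 to 66093558, plus strand) measured 7.76, 7.73 and 7.43 FPKM in the OE-labelled libraries, against 5.18, 5.93 and 3.85 FPKM in the CT-labelled libraries. The groups do not overlap, but the CT-labelled values spread over a wide range, and ASL averaged 7.64 ± 0.18 FPKM in the OE-labelled and 4.99 ± 1.1 FPKM in the CT-labelled libraries, which is 1.53-fold higher. The ASS1 level was 4.01 to 4.29 times that of ASL in the OE-labelled and 159 to 249 times in the CT-labelled libraries.

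Of the arginases, ARG2 was expressed and ARG1 was barely seen. ARG2 (ENSG00000081181, chromosome 14, 67619798 to 67651720, plus strand) measured 10.2, 9.57 and 9.82 FPKM in the OE-labelled libraries, against 7.41, 5.37 and 7.49 FPKM in the CT-labelled libraries. The OE-labelled values are all above the CT-labelled ones, by 1.46-fold in the means. ARG1 (ENSG00000118520, chromosome 6, 131573144 to 131584332, plus strand) had 5, 2 and 4 reads in the OE-labelled and 4, 0 and 2 reads in the CT-labelled libraries. These few reads overlap between groups and cannot show a difference. VTI1B overlaps ARG2, and MED23 overlaps ARG1, on the opposite strand, and the labels do not say whether counting used the strand. VTI1B, a SNARE protein gene, was itself higher, at 11.9 ± 0.40 FPKM in the OE-labelled and 6.12 ± 0.12 FPKM in the CT-labelled libraries (SD, n = 3 each; limma adjusted p = 8.85e-06). If counting ignored the strand, the reads of ARG2 and VTI1B cannot be told apart where they overlap.

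GLUL levels overlapped between the groups, and GLUD1 was lower in the OE-labelled libraries. GLUL (ENSG00000135821, chromosome 1, 182381704 to 182392206, minus strand) stood at 15.8, 13.9 and 14.9 FPKM in the OE-labelled libraries, against 14.4, 14.5 and 16.4 FPKM in the CT-labelled libraries. The libraries of both groups are interleaved, GLUL averaging 14.9 ± 0.98 FPKM in the OE-labelled and 15.1 ± 1.1 FPKM in the CT-labelled ones. The log2 difference of -0.02 turned positive, to 0.08, after scaling by the sum of reads instead. GLUD1 (ENSG00000148672, chromosome 10, 87050486 to 87094866, minus strand) stood at 33.6, 31.5 and 32.7 FPKM in the OE-labelled libraries, against 47.5, 42.3 and 47.8 FPKM in the CT-labelled libraries. The groups do not overlap, and the OE-labelled mean was 1.41-fold lower. SHLD2, which overlaps GLUD1 on the opposite strand, was lower too, at 10.6 ± 0.026 FPKM in the OE-labelled and 15.6 ± 1.8 FPKM in the CT-labelled libraries (limma adjusted p = 1.20e-03).

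**Figure D2:**
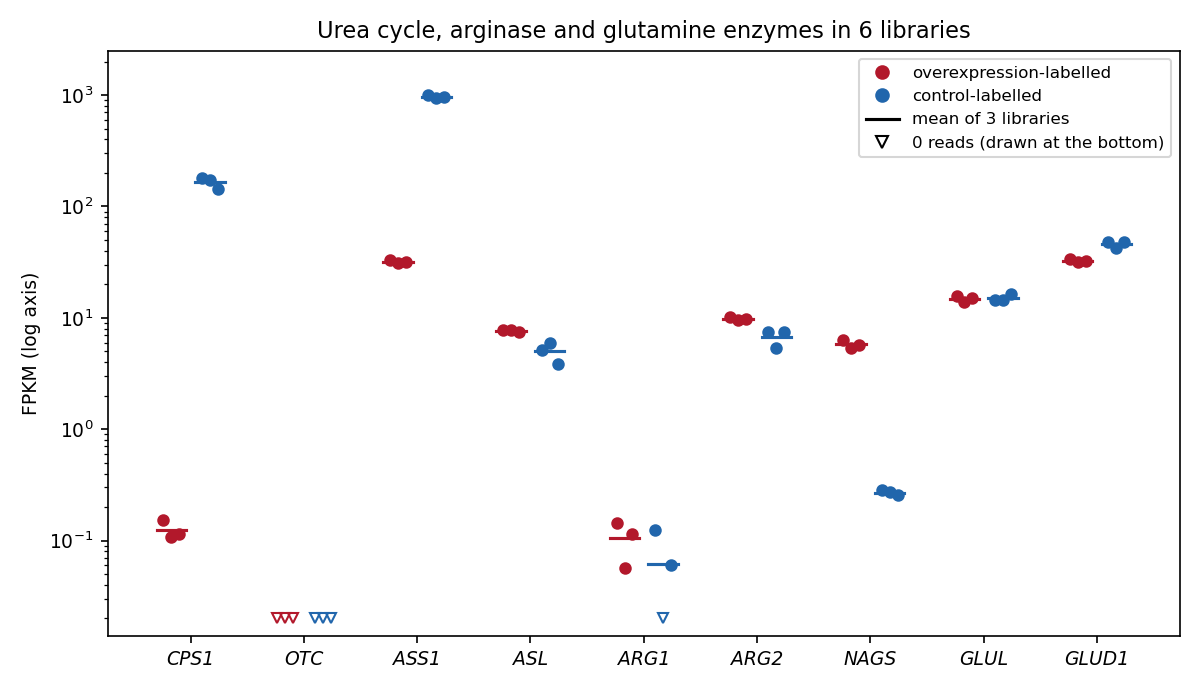
FPKM on a log axis (y) of the 9 genes (x) in the 3 OE-labelled (red, left) and 3 CT-labelled (blue, right) libraries, with each group's mean as a bar and libraries with 0 reads as open triangles at the bottom. CPS1 and ASS1 are far lower and NAGS far higher under the overexpression label, GLUL overlaps, and OTC has 0 reads in all 6 libraries.

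Counted together, 7 of the 9 members passed the filter of a mean of 1 FPKM, and OTC and ARG1 did not. The values did not overlap between groups for 6 of the 7, of which ASL, ARG2 and NAGS were higher and CPS1, ASS1 and GLUD1 lower in the OE-labelled libraries, beside 80.1% of all tested genes (39.2% higher and 40.9% lower). The median log2 difference was -0.02 over the 7 and -0.03 over all tested genes. These shares are those of a list chosen with this contrast in view, and nothing is read from them. The reads of all 9 made up 0.0416% to 0.0449% of the OE-labelled and 0.462% to 0.507% of the CT-labelled libraries.

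The order of levels within a group, which compares genes per length, differed between groups. From high to low it was GLUD1, ASS1, GLUL, ARG2, ASL, NAGS, CPS1, ARG1 and OTC in the OE-labelled libraries. It was ASS1, CPS1, GLUD1, GLUL, ARG2, ASL, NAGS, ARG1 and OTC in the CT-labelled libraries. Neighbours in that order whose libraries overlapped were GLUD1 and ASS1, and CPS1 and ARG1, in the OE-labelled group, and ARG2 and ASL, and ARG1 and OTC, in the CT-labelled group. The deposited lengths are those of whole gene models, 9032 bases for GLUL and 10775 for CPS1, where the longest principal transcript in GENCODE 29 has 4719 and 5821. On principal transcript lengths the means of ASS1 and GLUD1 were 49.4 and 37.8 FPKM in the OE-labelled group, so their order there depends on the length used. ASS1 made up 30.9% to 31.3% of the summed FPKM of the 9 in the OE-labelled and 79.7% to 81.3% in the CT-labelled libraries.

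Copies of the members took few reads. The table holds 11 pseudogenes of ASS1, which together had 12 reads in the OE-labelled and 17 in the CT-labelled libraries, against 5222 and 146902 reads of ASS1 itself. GLUL pseudogenes had 0 reads in the OE-labelled and 2 in the CT-labelled libraries, and the ASL pseudogene ASLP1 had 11 in the OE-labelled and 16 in the CT-labelled libraries. GLUD2, the retrocopy of GLUD1, and 5 GLUD1 pseudogenes had 207 reads in the OE-labelled and 316 in the CT-labelled libraries, most of them in GLUD1P3. CPS1-IT1, an RNA within an intron of CPS1, had 0 reads in the OE-labelled and 16 in the CT-labelled libraries.

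The genes whose levels over the 6 libraries were most like those of CPS1 were LPL, SPINK5 and ALPL. Likeness was the distance between log2(FPKM + 1) values centred per gene, 0.0886 for LPL (lipoprotein lipase), 0.467 for SPINK5 (a serine protease inhibitor) and 0.559 for ALPL (tissue-nonspecific alkaline phosphatase). LPL measured 0.142, 0.0632 and 0.0639 FPKM in the OE-labelled libraries, against 177, 176 and 137 FPKM in the CT-labelled libraries. As with CPS1, CT-labelled replicate 3 was the lowest of its group. For NAGS they were ZBED2 (0.0357), LCK (0.112) and ILDR1 (0.130). All 3 had 0 reads in at least 2 of the CT-labelled libraries. The 6 libraries fall into 2 groups, which such distances share.

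The genes on either side of CPS1, ASS1 and NAGS differed less between the groups than these members did. These members have the largest differences in a list chosen with this contrast known. Smaller differences beside them follow from that choice, and nothing is concluded from them. The nearest tested protein-coding genes on both sides, and those overlapping a member, were 21 genes, of which 7 were higher, 9 lower and 5 not past the threshold. Of all tested genes 76.8% passed, 37.5% higher and 39.3% lower. The neighbour counts lie near these shares, and nothing about the members is read from them. LANCL1, a glutathione-binding protein gene, starts 30 bases from the CPS1 gene model, on the opposite strand and pointing away from it. It measured 15.5 ± 0.42 FPKM in the OE-labelled and 16.0 ± 4.7 FPKM in the CT-labelled libraries (SD, n = 3 each; limma adjusted p = 0.994). The CT-labelled LANCL1 values of 16.2, 20.5 and 11.2 FPKM lie on both sides of the OE-labelled ones, 15.0, 15.7 and 15.8 FPKM. The RefSeq start of CPS1 lies 115673 bases inside that gene model, and values per gene do not show which start was used. On the other side of CPS1, SPAG16, a sperm flagellum protein gene 2605 kb away, was lower (0.832 ± 0.045 in the OE-labelled and 1.29 ± 0.17 FPKM in the CT-labelled libraries, limma adjusted p = 0.0136).

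Next to ASS1, both NCS1, a neuronal calcium sensor gene, and FUBP3, a single-stranded DNA binding protein gene, were lower. NCS1 measured 6.72 ± 0.13 FPKM in the OE-labelled and 19.6 ± 1.5 FPKM in the CT-labelled libraries (SD, n = 3 each), 2.91-fold lower (log2 difference -1.41, SE 0.067, limma adjusted p = 2.69e-06). FUBP3 measured 22.6 ± 1.3 FPKM in the OE-labelled and 28.3 ± 1.1 FPKM in the CT-labelled libraries (limma adjusted p = 2.49e-03). Next to NAGS, TMEM101, a membrane protein gene 2125 bases away, measured 10.3 ± 0.23 FPKM in the OE-labelled and 8.80 ± 0.34 FPKM in the CT-labelled libraries (limma adjusted p = 0.0101). MPP2, on the other side of NAGS, was lower, at 2.40 ± 0.036 FPKM in the OE-labelled and 3.04 ± 0.30 FPKM in the CT-labelled libraries (limma adjusted p = 0.0228). Both sides of GLUL, IER5 and DHX9, did not pass. SNCG, the gamma-synuclein gene 87.2 kb from GLUD1, had the largest fold among the 21, 8.69-fold higher (8.78 ± 0.96 in the OE-labelled and 1.01 ± 0.32 FPKM in the CT-labelled libraries, limma adjusted p = 6.88e-06). The largest fold lower was 3.37, of CTGF, 364 kb from ARG1 (5.01 ± 0.77 in the OE-labelled and 16.9 ± 4.8 FPKM in the CT-labelled libraries, limma adjusted p = 2.98e-04).

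**Figure D3:**
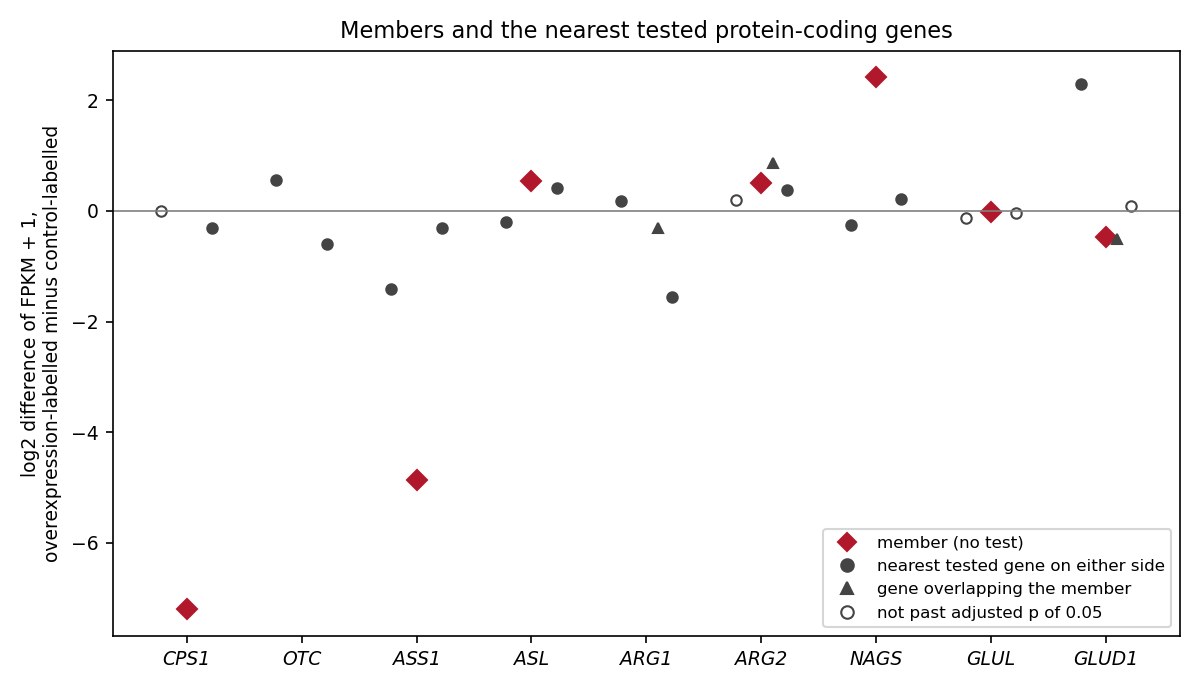
Log2 difference of FPKM + 1, OE-labelled minus CT-labelled (y axis), of each of the 7 members that passed the filter (red diamonds) and of the nearest tested protein-coding genes (grey circles) and overlapping genes (triangles) by member (x axis). Open circles and triangles are genes not past the threshold. All diamonds are filled and show no test result. The neighbours of CPS1, ASS1 and NAGS lie closer to 0 than these members, which were chosen with this contrast known.

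The wider pathway was described from 100 genes in 7 lists, none of them a member. Of these, 72 were tested, and 64 passed the threshold, 30 higher and 34 lower, while 8 did not. Of all tested genes 76.8% passed. The lists were chosen with earlier results of these data known, so nothing is read from a larger share.

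Carriers and helper enzymes of the cycle were 4 higher and 2 lower of 7 tested, with a median log2 difference of 0.29 (all tested genes -0.03). SLC25A15, the mitochondrial ornithine and citrulline carrier, measured 11.5 ± 1.4 FPKM in the OE-labelled and 7.0 ± 0.59 FPKM in the CT-labelled libraries (SD, n = 3 each; 1.65-fold higher, limma adjusted p = 8.17e-04). SIRT3 and SIRT5, mitochondrial deacylases of which SIRT5 acts on CPS1, were 3.24-fold and 3.21-fold higher (limma adjusted p = 1.35e-05 and 1.92e-05). CA5B, a mitochondrial carbonic anhydrase, was lower, at 0.513 ± 0.029 FPKM in the OE-labelled and 2.71 ± 0.37 FPKM in the CT-labelled libraries (limma adjusted p = 2.07e-05). The aspartate and glutamate carrier gene SLC25A13 did not pass.

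Genes that use or make glutamine and glutamate were 5 higher and 10 lower of 18 tested, with a median of -0.41. GFPT2 and GFPT1, which spend glutamine on hexosamine synthesis, were lower. GFPT2 measured 1.45 ± 0.29 FPKM in the OE-labelled and 20.7 ± 4.7 FPKM in the CT-labelled libraries (14.3-fold, limma adjusted p = 4.70e-06), and GFPT1 measured 8.69 ± 0.36 FPKM in the OE-labelled and 36.7 ± 7.5 FPKM in the CT-labelled libraries (limma adjusted p = 2.48e-05). CTPS1, CTP synthetase, was 2.87-fold lower (limma adjusted p = 6.46e-07). ABAT, which breaks down GABA, was higher, with 1193 reads in the OE-labelled and 46 in the CT-labelled libraries (limma adjusted p = 8.27e-06). Without OE-labelled replicate 1 or 3 ABAT fell under the filter and GPT2 lost its call, leaving 3 higher in this list. GPT2, alanine aminotransferase, also lost it without CT-labelled replicate 2 or 3. CAD, whose glutamine-dependent carbamoyl phosphate synthetase starts pyrimidine synthesis in the cytosol and which was chosen after its values were seen, did not pass. It measured 26.9 ± 1.6 FPKM in the OE-labelled and 27.5 ± 2.2 FPKM in the CT-labelled libraries (limma adjusted p = 0.737).

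Genes of arginine, ornithine and polyamines were 8 higher and 5 lower of 15 tested, with a median of 0.36. OAT, ornithine aminotransferase, measured 36.0, 36.4 and 34.8 FPKM in the OE-labelled libraries, against 9.43, 8.85 and 10.5 FPKM in the CT-labelled libraries. The groups lie well apart, and the means differed 3.73-fold (log2 difference 1.80, SE 0.068, limma adjusted p = 1.03e-06). PAOX, a polyamine oxidase, was higher, with 341 reads in the OE-labelled and 20 in the CT-labelled libraries (limma adjusted p = 5.53e-05). SMOX, spermine oxidase, was 2.58-fold lower (limma adjusted p = 1.61e-04) and GAMT, which completes creatine synthesis, 3.01-fold lower (limma adjusted p = 1.14e-06). NOS2, the inducible nitric oxide synthase, which also consumes arginine, did not reach the filter. It had 349 reads in the OE-labelled and 0 in the CT-labelled libraries, and was at least 108-fold higher with the CT-labelled group set to 3 reads.

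Proline enzymes were 1 higher and 3 lower of 5 tested, with a median of -0.71. PYCR1, which acts on the route from glutamate to proline, measured 26.7 ± 1.2 FPKM in the OE-labelled and 77.1 ± 4.9 FPKM in the CT-labelled libraries (limma adjusted p = 1.67e-06). ALDH18A1, on the same route, was 2.07-fold lower (limma adjusted p = 9.82e-05). ALDH4A1, which acts in proline breakdown, was 1.82-fold higher (limma adjusted p = 4.95e-04).

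Amino acid transporters were 6 higher and 8 lower of 15 tested, with a median of -0.30. SLC1A5, the main glutamine importer of many tumour cells, measured 341 ± 7.4 FPKM in the OE-labelled and 70.1 ± 5.9 FPKM in the CT-labelled libraries (SD, n = 3 each; 4.87-fold higher, limma adjusted p = 3.64e-07). SLC7A8, a neutral amino acid exchanger, was 327-fold higher, with 13387 reads in the OE-labelled and 38 in the CT-labelled libraries (limma adjusted p = 1.13e-08). SLC7A7, an arginine and neutral amino acid exchanger, was 17.2-fold higher (limma adjusted p = 4.31e-07). SLC7A2, which imports arginine, was lower, at 0.900 ± 0.0092 FPKM in the OE-labelled and 24.8 ± 1.9 FPKM in the CT-labelled libraries (27.6-fold, limma adjusted p = 5.36e-08).

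Regulators known for driving urea cycle genes in liver were 2 higher and 6 lower of 8 tested, with a median of -1.80. NR3C1, the glucocorticoid receptor, measured 0.909, 1.01 and 0.922 FPKM in the OE-labelled libraries, against 21.98, 22.4 and 19.5 FPKM in the CT-labelled libraries. The groups do not overlap, and the means differed 22.5-fold (log2 difference -3.51, SE 0.072, limma adjusted p = 7.84e-08). PPARGC1A, a coactivator of fasting metabolism, had 0 reads in the OE-labelled and 1991 in the CT-labelled libraries (limma adjusted p = 2.34e-06), and was at least 713-fold lower. CEBPA and CEBPB, bZIP factors of liver, were 7.91-fold and 4.42-fold lower (limma adjusted p = 1.97e-05 and 4.67e-06). The higher ones were HNF4A and FOXA3, and FOXA3 fell under the filter when any single OE-labelled library was left out, leaving 1 higher. HNF4A, a nuclear receptor of liver and gut, measured 5.74 ± 0.097 FPKM in the OE-labelled and 0.703 ± 0.32 FPKM in the CT-labelled libraries (limma adjusted p = 1.51e-05).

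Genes that share the pericentral liver zone with GLUL were 4 higher and 0 lower of 4 tested, with a median of 2.68. AXIN2, an inhibitor and target of Wnt signalling, was 48.0-fold higher (limma adjusted p = 3.67e-07), and the ubiquitin ligase genes RNF43 and ZNRF3 were 129-fold and 6.06-fold higher (limma adjusted p = 8.35e-08 and 1.86e-07). TBX3, a T-box factor, was only just past the threshold (limma log2 difference 0.17, adjusted p = 0.04999), and lost the call without CT-labelled replicate 1 or 3 or without any one OE-labelled library (0.0657 to 0.140), under TPM scaling (0.0801), with a minimum of 5 FPKM (0.0507), with no filter (0.0691) and with the replicate number as a block (0.0961). GLUL itself overlapped between the groups, as given above. Pericentral genes under the filter were not tested. LGR5 had 224 reads in the OE-labelled and 12 in the CT-labelled libraries, RHBG 42 and 0, and NR1I3 33 and 14. In the same order CYP1A2 had 3 reads and 1, and CYP2E1 had 7 and 16.

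**Figure D4:**
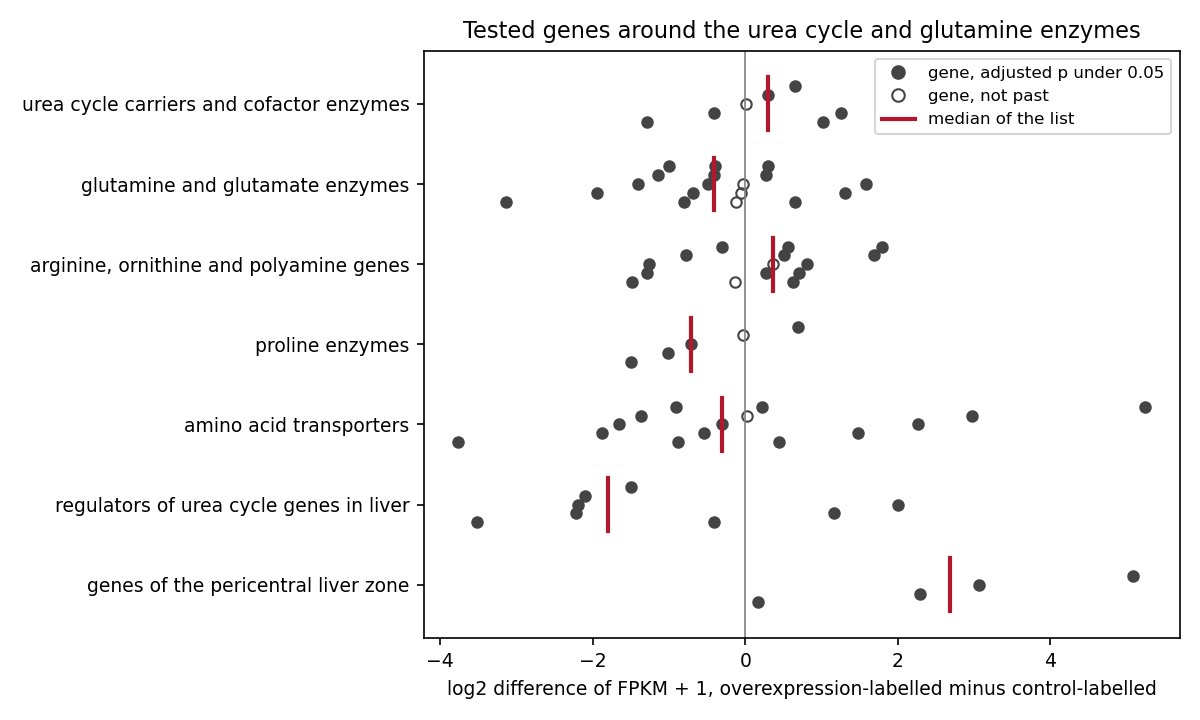
Log2 difference of FPKM + 1, OE-labelled minus CT-labelled (x axis), of the 72 tested genes in 7 lists (y axis), with filled circles for genes past an adjusted p of 0.05, open circles for the others and a red bar for each list's median. The pericentral list lies to the right of 0, the regulators mostly to the left, and the transporters spread on both sides.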

How the data were processed

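RNA was taken from cultures labelled as SW480 in 6 libraries, grouped by their titles, with an RNeasy kit and a SMARTER mRNA kit per the labels' protocols. The values the authors deposited are FPKM, 1 for each gene in each library, and gene lengths. The aligner and counter were not given in the sources used here. Submitters' processing notes name the mouse build mm10, whereas all 58735 genes matched human GENCODE 29 (GRCh38) in identifier, position and symbol. FPKM times length, divided by its smallest step in each library, gave whole reads for 100% of values above 0, within 0.001 read. Further per-sample columns numbered 0.

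From these, limma 3.58.1 (R 4.3.3) with a mean-variance trend was run on log2(FPKM + 1) of the 13972 genes averaging 1 FPKM or more. The model held only the group, tests were two-sided, with Benjamini-Hochberg adjustment and a threshold of 0.05. The steps were tested on simulated reads with equal spread in both groups and few changed genes. That run cannot show how they behave on data like these. The scale understates differences of low genes. Folds are ratios of mean FPKM, and a bound uses 3 reads over the group. Bounds cover counting error only.

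The members and lists were chosen with earlier results of these data known. Named were all members, DDX39B, for each list at most 4 called genes with the largest log2 change, nearest neighbours, pseudogenes, 3 genes most alike to CPS1 and NAGS, and markers. One gene that this rule names is not reported here. Others, such as SLC25A13, GPT2, CAD, NOS2, HNF4A, FOXA3 and the pericentral genes under the filter, were chosen after their values were seen. Same-numbered libraries of the groups did not deviate together (correlations -0.0217 to 0.00746). Alternatives were another pseudocount (0.1), another filter (none, or 5 FPKM), the scaling (TPM, sum of reads, quantile), the values (voom on reads), the replicate block, and each library in turn.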

Additional observations from a re-analysis of the deposited data

How the results depend on the processing

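Depth limits OTC, ARG1 and the low group of CPS1 and NAGS, and 6 libraries in 2 groups of unequal spread limit every test. Over the settings the log2 difference ranged from -10.24 to -7.14 for CPS1, -4.91 to -4.51 for ASS1, 2.35 to 4.47 for NAGS, 0.40 to 0.75 for ASL, 0.36 to 0.67 for ARG2, -0.53 to -0.34 for GLUD1 and -0.06 to 0.09 for GLUL. NAGS has no value with a minimum of 5 FPKM. At an unchanged number of tested genes, neighbours (7 higher, 9 lower) became 9 higher and 6 lower on the sum of reads, 9 and 7 with voom, and 8 and 8 after quantile normalization.

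With a minimum of 5 FPKM (7796 genes tested), 2784 genes were higher and 3434 lower. The counts higher were then 1 for carriers (1 lower), 3 for glutamine and glutamate enzymes, 0 for proline enzymes, 0 for regulators and 2 for pericentral genes. With no filter 8155 genes were higher, with 2 proline enzymes and 4 regulators higher, and with TPM 4 regulators were higher. Leaving out 1 library at a time gave 3 to 5 glutamine and glutamate enzymes higher, 1 to 3 regulators higher and 5 to 6 lower. It gave 6 to 8 neighbours higher and 7 to 10 lower, and DDX39B from -1.44 to -1.31. Of the 64 genes of the 7 lists past the threshold, 61 kept the call and direction under all 4 scalings (SLC38A9, SLC7A6 and TBX3 did not), and none reversed. Leaving out a library cost 4 genes the call while still tested: GPT2, SLC38A9, SLC7A6 and TBX3. ABAT, FOXA3 and GCGR fell under the filter in some of these runs, GCGR without CT-labelled replicate 1 or 2.

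Among neighbours not past the threshold, LANCL1 (0.0017) became -0.0049 under TPM, and ranged from -0.22 to 0.19 with 1 library left out. IER5 ranged from -0.56 to 0.36 with 1 library left out. DHX9 (-0.035) became 0.070 on the sum of reads, 0.084 after quantile normalization and 0.074 with voom, and ranged from -0.21 to 0.11 with 1 library left out. The cause was not tested.

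The numbers of the replicates do not pair the libraries. With the replicate block 5111 genes were higher and 5395 lower, the log2 difference of DDX39B stayed at -1.37 (limma adjusted p = 9.35e-05), and SLC38A9 and TBX3 lost their calls.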
